A study of Mus musculus with 77 samples.

Results

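The cytochrome P450 genes of families 2, 3 and 4 were followed in the livers of mice lacking either of the iron regulatory proteins, at 2 times of day. Members were the genes named Cyp2, Cyp3 or Cyp4 with a subfamily letter and a number, pseudogenes left out, that had at least 10 counts on the coding sequence (CDS) in at least 12 of the 24 RNA libraries. Of 25266 genes listed, 62 carried such a name and 39 were members: 24 of family 2, 4 of family 3 and 11 of family 4. The other 23 were under the count minimum, 3 of them with 0 CDS counts in every RNA library.

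P450s are monooxygenases that carry heme, an iron porphyrin, in the active site, and the microsomal ones draw electrons from NADPH through the P450 oxidoreductase POR. Families 2 and 3 oxidise drugs, toxins, steroids and arachidonic acid, and family 4 hydroxylates fatty acids and eicosanoids, in part under the lipid-sensing receptor PPARα. In hepatocytes many of them are controlled by the xenobiotic receptors PXR (Nr1i2) and CAR (Nr1i3), by clock output factors that bind D-box elements, and by the sex-dependent pattern of growth hormone release.

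The mice were adult males on a C57BL/6J background, 12 to 24 weeks old. They came from the Aco1 line (IRP1, allele Aco1tm1.1Mwh) and the Ireb2 line (IRP2, allele Ireb2tm1.2Mwh), each as whole-body knockouts (Aco1-/-, Ireb2-/-) and as controls of the same line (Aco1+/+, Ireb2+/+). Livers were taken at ZT5, in the light phase, and at ZT12, when the dark phase begins, from 3 mice per genotype and timepoint, which gave 8 groups and 24 mice. Each liver gave 1 library of ribosome-protected fragments (RPF) and 1 of total RNA, and translation efficiency (TE) was the log2 ratio of RPF to RNA. All libraries were sequenced in a first run. A second run added reads for 10 of 12 RNA and 10 of 12 RPF libraries of the Aco1 line, and for 4 and 5 of 12 of the Ireb2 line. In the first run the deposited names carry a further number that differed between the lines in both assays, and its meaning is not given in the sources used here.

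Levels are CPM, the CDS counts of a gene relative to the library size after upper-quartile scaling. They depend on CDS length and were compared between samples, not between genes. CDS counts ranged from 852293 to 3993492 per RNA library and from 2448915 to 13439600 per RPF library, of which the 39 members held 1.84 to 2.73% and 2.31 to 3.80%. Aco1 RPF was 74.8 to 123.2 CPM in Aco1-/- and 347.1 to 591 CPM in Aco1+/+, and Ireb2 RPF was 32.5 to 41.2 CPM in Ireb2-/- and 62.3 to 81.4 CPM in Ireb2+/+, without overlap. The summed RNA level of 5 hepatocyte markers was 84275 to 142102 CPM and that of 5 Kupffer cell markers 228 to 451 CPM. In whole liver, fewer cells of a type and less RNA per cell cannot be told apart.

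The members just inside the count minimum were Cyp2j9 (14 RNA libraries with at least 10 counts), Cyp2c55 (18), Cyp4a32 (20) and Cyp4f17 (21). Just outside were Cyp4a31 (9), Cyp2c40 (8) and the CAR target Cyp2b10 (7). Cyp2b13, Cyp2j13 and Cyp3a41a were the genes at 0 counts. Most members lie in clusters of related copies: on GRCm38.p6, 9 of the 10 Cyp2c genes on chromosome 19 (39006940 to 40187286), 5 Cyp2d genes on chromosome 15 (82370527 to 82794452), 5 Cyp4a genes on chromosome 4 (115299046 to 115622507), 4 Cyp4f genes on chromosome 17 (32506192 to 32947415) and 3 of the 4 Cyp3a genes on chromosome 5 (145854607 to 146114978). Cyp2c23 (chromosome 19 from 44005022) and Cyp3a13 lie apart from these. Copies in such clusters can be so alike that short reads match several of them, and how such reads were counted is not given in the sources used here, so values of single Cyp2c, Cyp2d, Cyp3a and Cyp4a genes carry that uncertainty.

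The first question was which P450s differed between ZT5 and ZT12, averaged over the 4 genotypes. In RNA, 8 members were higher at ZT12 (Cyp2a5, Cyp4a12a, Cyp2c67, Cyp2e1, Cyp3a13, Cyp4f13, Cyp2c23 and Cyp2d9) and 2 were lower (Cyp4f17 and Cyp2u1), which is 20.5% and 5.13% of members, against 9.71% and 12.5% of the 10696 genes tested. In RPF, 8 were higher (Cyp2d40 in place of Cyp2d9) and the same 2 were lower, against 13.6% and 18.2% of all genes, and 9 members were called in both assays in the same direction. Calls in either direction made up 25.6% of members in both assays, near the background of 22.3% in RNA and below that of 31.8% in RPF. The median log2 difference was 0.05 (RNA) and 0.01 (RPF) for members and -0.04 in both for all genes.

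**Figure D1:**
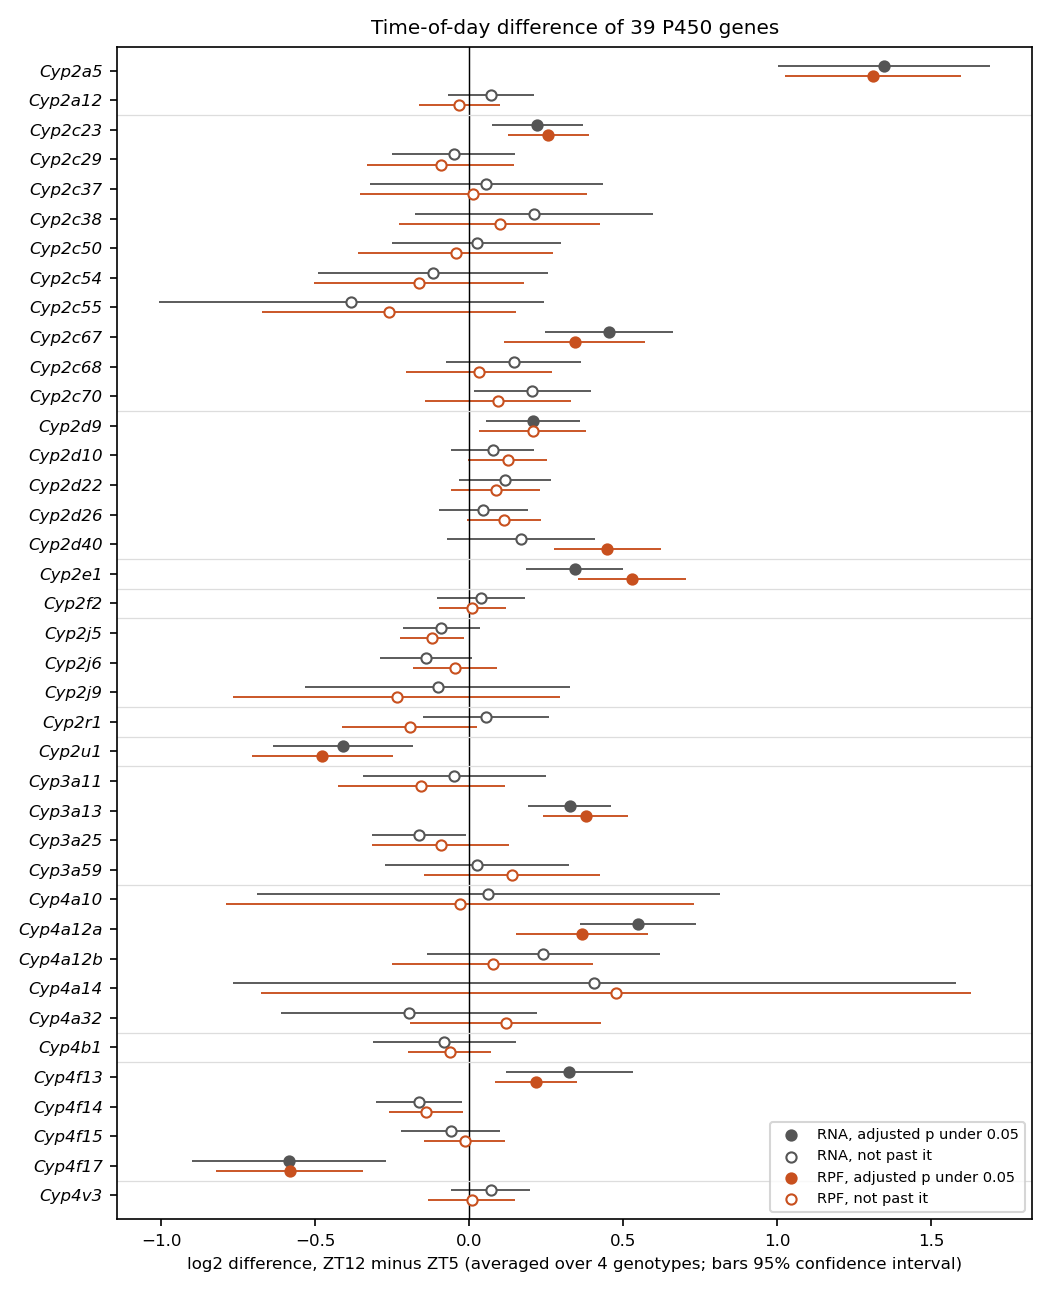
Log2 difference ZT12 minus ZT5 of each of the 39 members, averaged over the 4 genotypes, in RNA and RPF, with 95% confidence intervals and filled points where the adjusted p was under 0.05. Cyp2a5 lies at 1.35 (RNA) and 1.31 (RPF), and every other member lies between -0.58 and 0.55.

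Cyp2a5, a coumarin 7-hydroxylase that also metabolises nicotine and bilirubin, had the largest time difference of the members. Its RNA level was 86.8, 218 and 310.1 CPM at ZT5 and 316, 401 and 773 CPM at ZT12 (lowest, median and highest of 12 mice each), and its RPF level was 159.6, 390.2 and 591 CPM at ZT5 and 607, 803 and 1473 CPM at ZT12. All 12 mice of ZT12 were above all 12 of ZT5 in both assays. RNA was 2.55-fold (95% confidence interval 2.01 to 3.23, adjusted p = 9.44e-06) and RPF 2.48-fold (2.03 to 3.03, adjusted p = 5.68e-07) that of ZT5. Among the groups of 3 mice, RNA at ZT5 was 102 ± 22.3 CPM (SD) in Aco1+/+, 142 ± 68.6 in Aco1-/-, 229 ± 10.9 in Ireb2+/+ and 264 ± 42.8 in Ireb2-/-. At ZT12 it was 393 ± 84.3, 456 ± 138, 400.2 ± 40.3 and 519 ± 223 CPM in the same order. The ZT12 mice were above the ZT5 mice without overlap within each of the 4 genotypes. The log2 RNA difference was 1.81 ± 0.23 (SE) in the Aco1 line and 0.89 ± 0.23 in the Ireb2 line, and the gap between the lines did not pass (-0.92, adjusted p = 0.391), in a test chosen after the values were seen. Its TE differed by -0.03 (-0.16 to 0.10). The other member of the subfamily, Cyp2a12, a steroid hydroxylase, differed by 0.07 (-0.07 to 0.21) in log2 RNA and -0.03 (-0.16 to 0.10) in log2 RPF. Cyp2a4, a near-identical copy of Cyp2a5 that was under the count minimum (at most 22 RNA counts in a library), was at 2.49 ± 0.29 in log2 RPF and passed the test there, and how reads were split between these copies is not known.

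Cyp2e1, which oxidises ethanol, acetone and paracetamol and marks pericentral hepatocytes, took 37.7% of the members' RNA counts and 38.7% of their RPF counts, shares that are not corrected for length. Its RNA level was 5097, 6368 and 8925 CPM at ZT5 and 5396, 8375 and 10028 CPM at ZT12, and its RPF level was 7283, 10580.0 and 14317 CPM at ZT5 and 9802, 15368 and 19908 CPM at ZT12. In RPF, 10 of the 12 mice of ZT12 were above every mouse of ZT5, and in RNA 4 of them were. RNA was 1.27-fold (1.14 to 1.41, adjusted p = 0.00103) and RPF 1.44-fold (1.28 to 1.63, adjusted p = 2.67e-05) that of ZT5. Of the other pericentral markers, 1 higher and 2 lower of 7 were called in RNA and 1 higher and 3 lower of 7 in RPF, and of the periportal markers 1 higher and 2 lower of 7 and 2 higher and 3 lower of 7. Their part in the Cyp2e1 result was not tested.

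**Figure D2:**
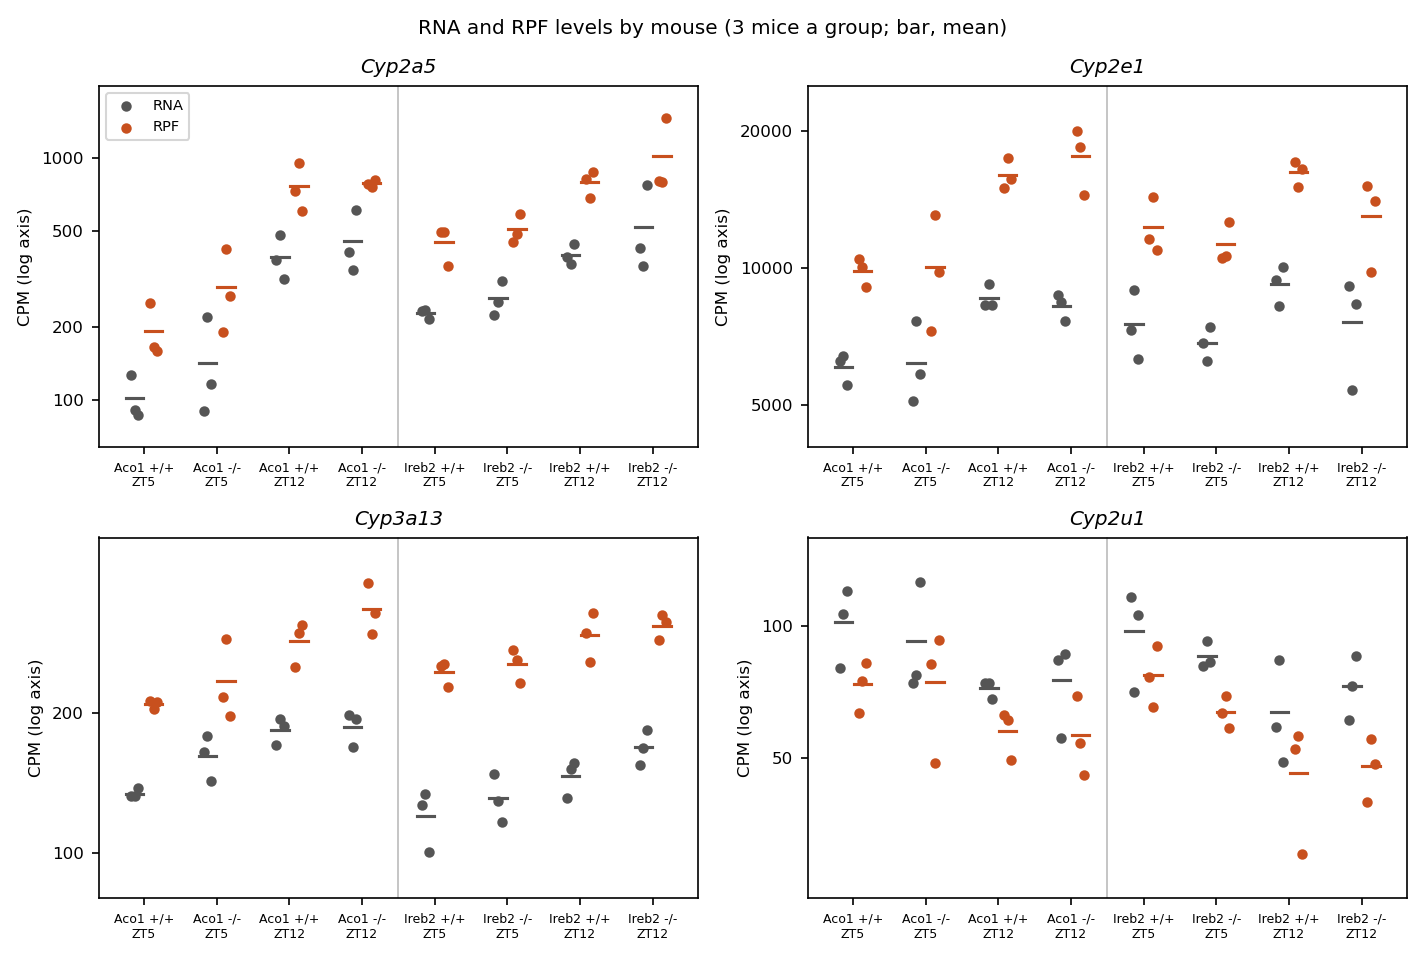
RNA and RPF levels in CPM on log axes for Cyp2a5, Cyp2e1, Cyp3a13 and Cyp2u1 in the 8 groups of 3 mice, 1 point per mouse and a bar at each group mean. In Cyp2a5 the RNA level of all 12 mice of ZT12 (316 to 773 CPM) lies above that of the 12 of ZT5, whereas in Cyp2u1 the ZT12 mice reach at most 86.3 CPM and the ZT5 mice up to 126 CPM.

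Of the 10 Cyp2c genes, whose substrates include drugs, retinoids and arachidonic acid, 2 were higher at ZT12 in both assays and 8 were called in neither. The RNA level of Cyp2c67 was 87.7, 110.5 and 169 CPM at ZT5 and 80.6, 179 and 249 CPM at ZT12. The ranges overlapped, with 7 mice of ZT12 above all of ZT5 and 1 below them all, and 4 of 4 genotypes had the higher mean at ZT12. The level at ZT12 was 1.37-fold (1.19 to 1.58, adjusted p = 0.00146) in RNA and 1.27-fold (1.08 to 1.48, adjusted p = 0.0205) in RPF. Cyp2c23, an arachidonic acid epoxygenase, had an RPF level of 681, 869.9 and 1059 CPM at ZT5 and 886, 1075 and 1191 CPM at ZT12, with 7 mice of ZT12 above all of ZT5. It was 1.19-fold (1.09 to 1.31, adjusted p = 0.0029) in RPF and 1.17-fold (1.05 to 1.29, adjusted p = 0.0242) in RNA, a call lost without any 1 of 5 of the 24 mice (adjusted p up to 0.0838). The log2 RNA differences of the 8 uncalled genes ran from -0.38 to 0.21.

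In the Cyp2d cluster, whose human counterpart CYP2D6 metabolises many drugs, Cyp2d9, a male-predominant testosterone 16α-hydroxylase, had an RNA level of 589.6, 826 and 982 CPM at ZT5 and 695, 942 and 1122 CPM at ZT12. The times overlapped, and 5 mice of ZT12 were above all of ZT5. The level at ZT12 was 1.15-fold (1.04 to 1.28, adjusted p = 0.0432) in RNA and 1.15-fold (1.02 to 1.30, adjusted p = 0.0656) in RPF, so only the RNA call passed. That call was lost under 3 of 7 other settings, the stricter low-count filter, all count columns summed and the first run alone, and without any 1 of 14 of the 24 mice (adjusted p up to 0.112). In RPF, 2 of 4 genotypes had the higher mean at ZT12. By line, its log2 RPF difference was 0.46 ± 0.12 (SE) in the Aco1 line and -0.05 ± 0.12 in the Ireb2 line. In TE these were 0.19 and -0.20, and neither gap passed in edgeR (adjusted p = 0.0946 and 0.129). Cyp2d40 passed in RPF alone, at 14.5, 24.3 and 41.4 CPM at ZT5 and 23.2, 34.8 and 44.3 CPM at ZT12. Those ranges also overlap, with 4 of 4 genotypes higher at ZT12, and the ratio was 1.37-fold (1.21 to 1.54, adjusted p = 0.000164) in RPF and 1.12-fold (0.950 to 1.33, adjusted p = 0.339) in RNA. Cyp2d10, Cyp2d22 and Cyp2d26 were called in neither, with log2 RPF differences of 0.09 to 0.13.

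Cyp2u1, a fatty acid hydroxylase and the lone gene of its subfamily, was lower at ZT12. Its RNA level was 70.6, 87.6 and 126 CPM at ZT5 and 49.0, 73.5 and 86.3 CPM at ZT12, and its RPF level was 48.7, 72.0 and 92.6 CPM at ZT5 and 30.3, 53.3 and 69.2 CPM at ZT12. None of the 4 genotypes had a higher mean at ZT12 in either assay, though single mice overlapped. The level at ZT12 was 0.753-fold (0.643 to 0.882, adjusted p = 0.00831) in RNA and 0.718-fold (0.614 to 0.841, adjusted p = 0.00183) in RPF. Cyp2f2, which activates naphthalene, differed by 0.04 (-0.10 to 0.18) in log2 RNA, and Cyp2r1, a vitamin D 25-hydroxylase, by 0.05 (-0.15 to 0.26). The epoxygenase genes Cyp2j5, Cyp2j6 and Cyp2j9 were not called, with log2 RNA differences of -0.14 to -0.09.

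The time difference was set between the lines in a test chosen after the values were seen, which called 1 of 39 members in RPF (2.56%), below the share of 3.19% of all genes, and 0 in RNA and TE, against 0.00935% and 0.0841%. The member was Cyp2j6, and its call was lost without any 1 of 6 of the 24 mice (adjusted p up to 0.075). Its RPF level in the Aco1 line was 79.8, 91.0 and 104 CPM at ZT5 and 92.7, 107.97 and 115 CPM at ZT12 (6 mice each). In the Ireb2 line it was 108.3, 115 and 139 CPM at ZT5 and 77.9, 97.5 and 115 CPM at ZT12, so the medians moved in opposite directions and the ranges overlapped in both lines.

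Family 3 had 1 call among 4 members. Cyp3a13, which hydroxylates steroids and drugs, had an RPF level of 197, 230.0 and 289 CPM at ZT5 and 252, 304 and 381 CPM at ZT12. Of the ZT12 mice, 9 were above all of ZT5, and within each of the 4 genotypes the times did not overlap. The level at ZT12 was 1.30-fold (1.18 to 1.43, adjusted p = 8.12e-05) in RPF and 1.25-fold (1.14 to 1.38, adjusted p = 0.00029) in RNA. Cyp3a11, a PXR target that acts on many of the drugs taken by human CYP3A4, differed by -0.05 (-0.34 to 0.25) in log2 RNA and -0.16 (-0.43 to 0.12) in log2 RPF. Cyp3a13 lies at positions 137892933 to 137925610 of chromosome 5, apart from the cluster of Cyp3a11, Cyp3a25 and Cyp3a59.

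In family 4, Cyp4a12a, a male-predominant arachidonic acid ω-hydroxylase, was higher at ZT12. Its RNA level was 79.0, 119 and 188 CPM at ZT5 and 83.8, 174 and 263 CPM at ZT12. The ranges overlapped, and 4 of 4 genotypes in RNA and 3 in RPF had the higher mean at ZT12. The level at ZT12 was 1.46-fold (1.28 to 1.67, adjusted p = 3.62e-05) in RNA and 1.29-fold (1.11 to 1.49, adjusted p = 0.00849) in RPF. Its close copy Cyp4a12b differed by 0.24 (-0.14 to 0.62) in log2 RNA. The PPARα-responsive ω-hydroxylases Cyp4a10 and Cyp4a14 differed by 0.06 (-0.69 to 0.81) and 0.41 (-0.77 to 1.58), intervals that leave room for large change either way.

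Of the 4 Cyp4f genes, which hydroxylate leukotrienes and vitamin E, 1 was higher and 1 lower. Cyp4f13 had an RPF level of 86.0, 101 and 123.5 CPM at ZT5 and 89.5, 116 and 162 CPM at ZT12, a ratio of 1.16-fold (1.06 to 1.27, adjusted p = 0.0111). The times overlapped, with 4 of 4 genotypes higher at ZT12 in RPF and 3 of 4 in RNA. The RNA ratio was 1.25-fold (1.09 to 1.44, adjusted p = 0.0171), a call lost when all count columns were summed (adjusted p = 0.253). Cyp4f17 had an RPF level of 10.97, 14.8 and 20.9 CPM at ZT5 and 6.72, 9.63 and 13.6 CPM at ZT12, with 8 mice of ZT12 below all of ZT5. The level at ZT12 was 0.668-fold (0.566 to 0.788, adjusted p = 0.000341) in RPF and 0.667-fold (0.536 to 0.830, adjusted p = 0.00522) in RNA, a call lost with the first run alone (adjusted p = 0.0721). Cyp4f14, Cyp4f15, Cyp4b1 and Cyp4v3 were called in neither assay, with log2 RNA differences of -0.16 to 0.07.

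Within each line, the called members kept the direction of their RNA difference, but its size varied. The 8 higher members ran from 0.25 (Cyp2d9) to 1.81 (Cyp2a5) in the Aco1 line and from 0.14 (Cyp2c23 and Cyp2c67) to 0.89 (Cyp2a5) in the Ireb2 line. Cyp2c67 was at 0.77 ± 0.14 in the Aco1 line and 0.14 ± 0.14 in the Ireb2 line (adjusted p of the gap = 0.319), and Cyp4f17 at -1.07 ± 0.21 and -0.10 ± 0.23 (0.311). Cyp3a13 (0.33 and 0.32) and Cyp2u1 (-0.40 and -0.41) had nearly the same value in both lines. The RPF calls also kept their direction in both lines, and Cyp2e1 TE was at 0.30 in the Aco1 line and 0.08 in the Ireb2 line (adjusted p of the gap = 0.342).

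TE of the members was compared with that of all genes and between the times. Of 39 members, 34 had a mean log2 TE above the median of all genes (0.11), 22 were above the upper quartile (0.62) and 2 below the lower quartile (-0.55), and the members' median was 0.63. The highest were Cyp4f15 (1.67 ± 0.22, SD over 24 mice), Cyp4f13 (1.37 ± 0.34), Cyp2d22 (1.30 ± 0.23), Cyp2f2 (1.30 ± 0.21) and the fatty acid ω-hydroxylase Cyp4v3 (1.19 ± 0.13). Neighbours from Cyp4f13 to Cyp4v3 in this order lie closer together than their SDs. Counts not assigned to a transcript region made up 11.1% of RNA and 3.13% of RPF counts in Cyp4f15, and 25.2 and 9.31% in Cyp4f13. In Cyp2d22 these shares were 24.4 and 10.8%, in Cyp2f2 8.59 and 4.10%, and in Cyp4v3 0.0% in both assays. Their part in TE was not tested. The lowest were Cyp2j9 (-1.43 ± 0.84), Cyp2r1 (-0.79 ± 0.30), Cyp2u1 (-0.42 ± 0.25), Cyp3a25 (-0.04 ± 0.29) and Cyp4a12a (0.06 ± 0.23). Cyp2r1 was above the all-gene median in 0 of 24 mice, and the value of Cyp2j9 rests on as few as 2 RNA counts and 1 RPF count in a library. By subfamily, the 4 Cyp4f genes ran from 0.62 to 1.67 and the 10 Cyp2c genes from 0.13 to 1.17.

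**Figure D3:**
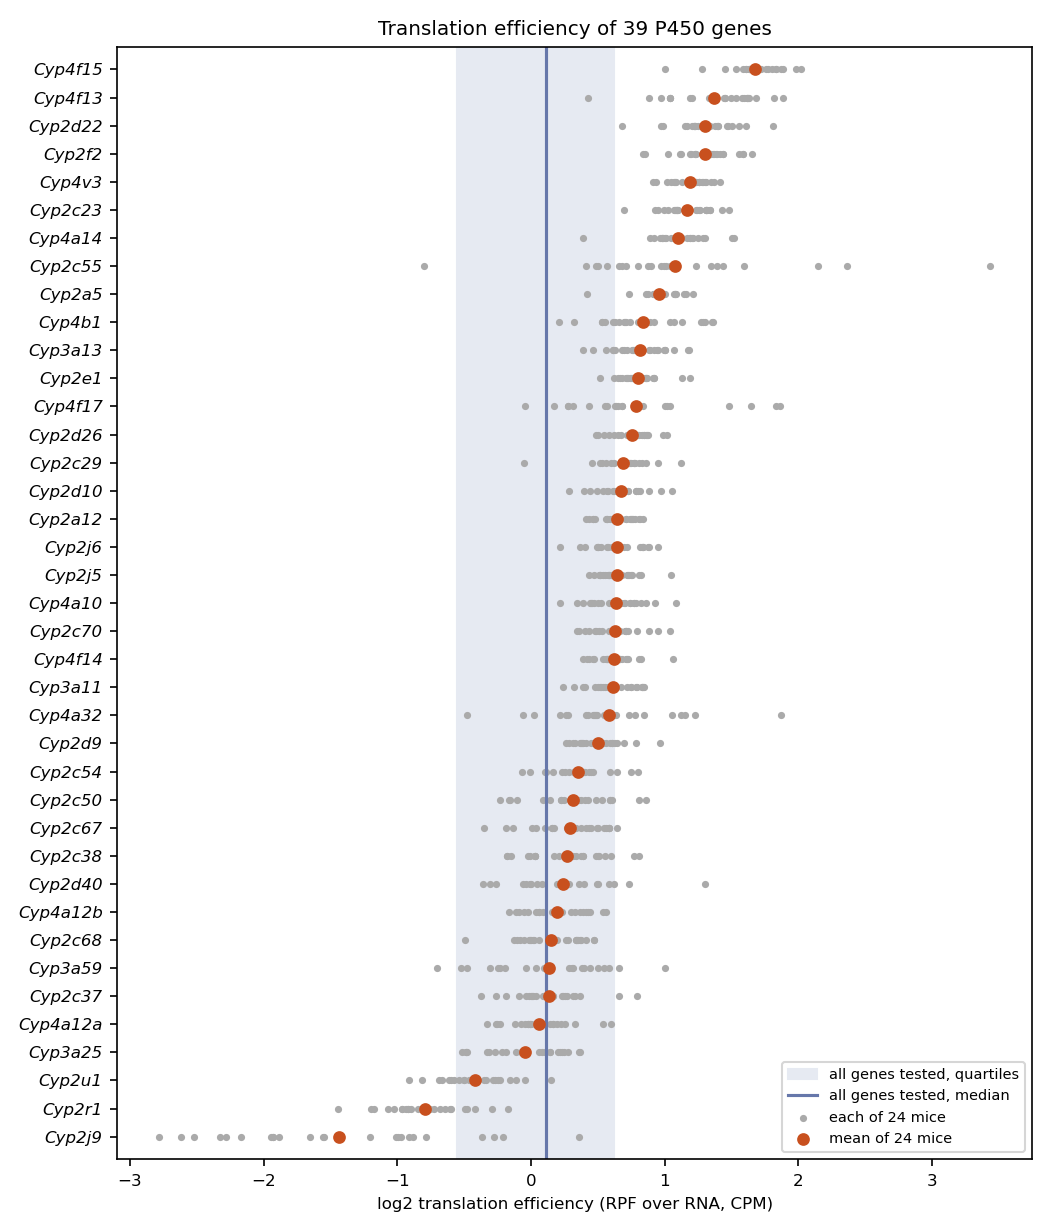
Log2 TE (RPF over RNA) of each of the 39 members, with 24 mice as points and the mean marked, and a band for the quartiles of all 10696 genes (-0.55 to 0.62) around their median of 0.11. The means of 22 members lie to the right of the band.

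Between the times, 1 member was called in TE, against 0.486% of all genes, and 6 (15.4%) were under an unadjusted p of 0.05, against 9.4% of all genes. The called member was Cyp2e1, with a log2 TE of 0.51, 0.73 and 0.79 at ZT5 and 0.72, 0.86 and 1.19 at ZT12. Of its 12 mice at ZT12, 9 were above every mouse of ZT5, and 4 of 4 genotypes had the higher mean at ZT12. The ratio was 1.14-fold (1.08 to 1.21, adjusted p = 0.0141), and within genotypes the log2 difference was 0.19 ± 0.08 (SE) in Aco1+/+, 0.40 ± 0.08 in Aco1-/-, 0.10 ± 0.08 in Ireb2+/+ and 0.06 ± 0.08 in Ireb2-/-. The call was lost with limma on the TE of each mouse (adjusted p = 0.206) and when RPF and RNA were not paired by mouse (adjusted p = 0.995).

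RefSeq promoters (250 bases before to 50 after a start, GRCm38.p6) were found for 30 members, 34 promoters in all, and searched on both strands for letters read by factors that vary with time of day. The D-box read by the PAR bZIP factors, searched as TTACATAA, TTACGTAA, TTATATAA and TTATGTAA, was in the promoters of 0 members and in 1.59% of all 32851 promoters, which says only that these letters are not in these windows. The E-box CACGTG, read by CLOCK and BMAL1, was in those of 2 members and in 7.15% of all promoters. Both are shown 5′ to 3′ with the motif in capitals and 11 bases on each side. The start used for Cyp2j6 lies inside the gene, whose annotated 5′ end is at 96564305.
Cyp2j6, chr4:96553679-96553706, minus strand: agagctctgtgCACGTGatcaggggttc
Cyp4v3, chr8:45333318-45333345, minus strand: ccgtgagctttCACGTGcattctgaact
Neither of these members was called for time, with log2 RNA differences of -0.14 (Cyp2j6) and 0.07 (Cyp4v3). The hexamer AGGTCA, read by nuclear receptors, was in 9 members, among them Cyp2a5, Cyp3a11, Cyp3a25 and Cyp3a59, and in 16.3% of all promoters. In Cyp2a5 and Cyp2d40 it lay downstream of the start, at bases 30 and 33, on the strand opposite to the gene. Cyp3a25 and Cyp3a59, neighbours in the Cyp3a cluster, carried it in nearly the same surroundings, shown as an instance of how alike such copies are.
Cyp3a25, chr5:146009778-146009805, minus strand: tataagctcaaAGGTCAgagtaagaaaa
Cyp3a59, chr5:146079070-146079097, plus strand: tataagctcaaAGGTCAgagtaaaaaaa
Their time differences were -0.16 (-0.32 to -0.01) and 0.03 (-0.27 to 0.32) in log2 RNA, and neither was called.

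The proteins that P450s work with were read in the same fits. Of the redox partners, 1 higher and 3 lower of 6 were called in RNA and 1 higher and 2 lower of 6 in RPF. Por had an RNA level of 89.6, 172 and 254 CPM at ZT5 and 322, 517 and 659.8 CPM at ZT12, without overlap (log2 1.74 ± 0.09), while Pgrmc2, a heme chaperone, was at -0.70, Cyb5b at -0.41 and Pgrmc1 at -0.22. Of the heme supply genes, 2 higher and 0 lower of 7 were called in RNA: Alas1, the rate-limiting enzyme of heme synthesis (log2 2.38 ± 0.32), and Fech, which inserts the iron (0.17 ± 0.06). The estimated time difference of Cyp2a5 in RNA, averaged over the genotypes, was below those of Por and Alas1. Those of all other members were smaller still, and no test was made between genes.

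Of the nuclear receptors and partners, 7 higher and 0 lower of 10 were called in RNA and 8 higher and 0 lower of 10 in RPF, with log2 RNA differences of 0.56 for Nr1i2, 0.55 for Nr1i3, 0.39 for Hnf4a and 0.31 for Ppara. Of the PAR bZIP clock outputs, 2 higher and 0 lower of 4 were called in RNA, Tef (0.96) and Hlf (0.70), and 3 higher and 0 lower of 4 in RPF, where Dbp (0.90) joined them. Of the PPARα targets other than P450s, 3 higher and 2 lower of 14 were called in RNA, and of P450s of other families 2 higher and 2 lower of 9, with Cyp7a1, the rate-limiting enzyme of bile acid synthesis, at 0.69 and Cyp8b1, the sterol 12α-hydroxylase, at -0.95. Among the male-predominant genes 2 higher and 2 lower of 10 were called in RNA, 3 of these 4 being the members Cyp2d9, Cyp4a12a and Cyp2u1, and among the female-predominant genes 1 higher and 0 lower of 6, the PPARα target Acot3. Of hepatocyte markers, 2 higher and 0 lower of 5 were called in RNA and 3 higher and 0 lower of 5 in RPF. Of cholangiocyte markers these counts were 0 higher and 1 lower of 4 and 0 higher and 3 lower of 4, with median log2 differences of -0.65 and -0.79, and their summed RNA level was 9.16 to 53.8 CPM. Of endothelial markers they were 0 higher and 1 lower of 5 and 0 higher and 2 lower of 5, and of red cell markers 0 higher and 0 lower of 5 and 0 higher and 1 lower of 5. The red cell marker called was Alas2 (log2 RPF -0.52, log2 TE -0.48), while no globin gene was called in either assay. The study takes the Alas2 signal in liver to be most likely from hepatocytes, and this mRNA carries an iron-responsive element. Of the 5 Kupffer cell, 5 stellate cell and 1 adipocyte markers, 0 were called in either assay. No T and B cell marker passed the count filter.

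The members differed widely in how far mice of 1 group lay apart. The SD of the log2 RNA level within groups had a median of 0.28 over members and 0.33 over all genes. It was largest in Cyp4a14 (1.53), Cyp4a10 (0.97), Cyp2c55 (0.95), Cyp2j9 (0.59) and Cyp4a32 (0.58), the last 3 of which have few counts. In TE the SD was 0.21 for Cyp4a14 and 0.18 for Cyp4a10, below the all-gene median of 0.37, so mice that differed in RNA differed alike in RPF.

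Cyp4a14 RNA was 162, 47.5 and 7.61 CPM in the 3 Aco1+/+ mice of ZT5, 201, 686 and 25.1 in Aco1-/- of ZT5, 256, 447 and 112.2 in Aco1+/+ of ZT12 and 151, 75.9 and 599.8 in Aco1-/- of ZT12. In the Ireb2 line it was 33.4, 28.2 and 58.3 CPM in Ireb2+/+ of ZT5, 177, 173 and 152 in Ireb2-/- of ZT5, 38.2, 13.7 and 117 in Ireb2+/+ of ZT12 and 175, 29.4 and 141 in Ireb2-/- of ZT12. The lowest and highest mouse differed 90.1-fold, and mice of 1 group up to 27.3-fold. Cyp4a10, at 19.0 to 403 CPM, was high and low in the same mice. Deviations of Cyp4a10 and Cyp4a14 from their group means had r = 0.94 (Pearson) and rho = 0.92 (Spearman) over 24 mice. Permutation within groups gave p = 2e-05 and 8e-05, adjusted 0.0004 and 0.0016 over 20 relations among the 5 Cyp4a genes. Without the 2 farthest mice r was 0.91, and it was 0.94 within the Aco1 line and 0.94 within the Ireb2 line. How many reads these related copies share was not tested.

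**Figure D4:**
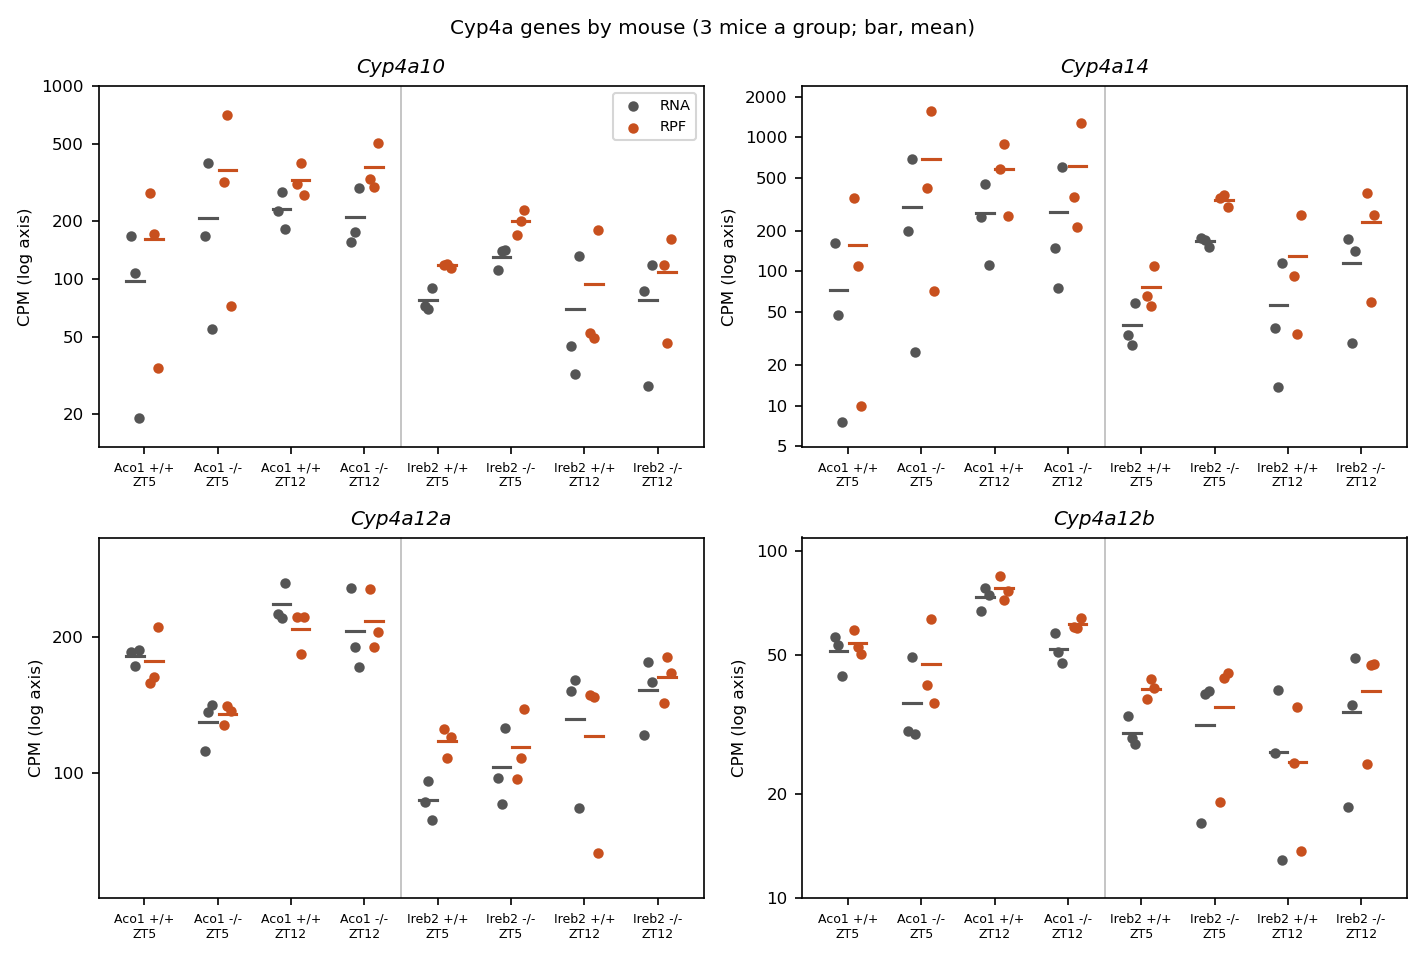
RNA and RPF levels in CPM on log axes for Cyp4a10, Cyp4a14, Cyp4a12a and Cyp4a12b in the 8 groups of 3 mice, 1 point per mouse and a bar at each group mean. Cyp4a14 RNA spans 7.61 to 686 CPM with wide scatter within groups, and Cyp4a12a RNA lies lower in Ireb2+/+ than in Aco1+/+.

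The control livers of the lines share their genetic background and were compared with each other. The number in the deposited names of the first run also differed between the lines, and the second run covered them unevenly. Line and these differences in sequencing cannot be told apart. Averaged over the times, 1 member was called in RNA and 2 in RPF, against 0.243% and 0.374% of all genes, and all were lower in Ireb2+/+. Cyp4a12a RNA was 172, 204 and 263 CPM (lowest, median and highest of 6 mice) in Aco1+/+ and 79.0, 91.4 and 161 CPM in Ireb2+/+, without overlap. The ratio of Ireb2+/+ to Aco1+/+ was 0.521-fold (0.433 to 0.627, adjusted p = 0.00048) in RNA and 0.621-fold (0.503 to 0.765, adjusted p = 0.0406) in RPF. Cyp4a12b RPF was 50.5, 65.8 and 84.7 CPM in Aco1+/+ and 13.7, 36.5 and 42.6 CPM in Ireb2+/+, also without overlap. Its ratio was 0.476-fold (0.345 to 0.657, adjusted p = 0.0456) in RPF and 0.473-fold (0.327 to 0.684, adjusted p = 0.108) in RNA. Without 1 mouse, the RPF call was lost in 9 of 24 fits for Cyp4a12a and in 13 of 24 for Cyp4a12b. It was also lost for Cyp4a12a with all count columns summed or a replicate block, and for Cyp4a12b with no low-count filter, all count columns summed or the first run alone (adjusted p up to 0.154 and 0.166 over all alternatives). Other settings gave more calls. DESeq2 called 2 members in RNA, adding Cyp4a12b, and 7 in RPF, of which Cyp2d40, Cyp2f2, Cyp4a12a, Cyp4a12b and Cyp4a32 were lower and Cyp2a5 and Cyp2c37 higher in Ireb2+/+. Cyp4a12b was also called in RNA with the stricter filter, with the first run alone and without Ireb2-/- ZT12 replicate 1, Ireb2-/- ZT5 replicate 1 or Ireb2+/+ ZT12 replicate 2. In RPF, leaving out 1 mouse gave 0 to 4 calls, and the count of 4 came without Aco1-/- ZT5 replicate 3 and without Aco1+/+ ZT5 replicate 3. In this RNA contrast, the other male-predominant members Cyp2d9 (-0.14) and Cyp2u1 (-0.10) were not called, and 10 of the 10 male-predominant genes were below 0, with a median of -0.43, beside 0.00 for all genes. The one called among them was Cyp4a12a, which prompted the look at this list. The list also holds its close copy Cyp4a12b, so the count and the median are not independent of that call. With knockouts set against controls within the lines, 7 to 10 of the 10 were below 0 in RNA and 4 to 10 in RPF over the 4 comparisons, with medians of -0.36 to -0.20 and -0.32 to 0.06 and 0 called. In TE 1 to 7 were below 0. These comparisons share control mice with the one between the lines, so the counts are not independent of it. Between the control lines in RNA, 0 of 6 female-predominant genes tested were called and 4 were above 0.

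The last question was whether loss of either protein changed the P450s, with knockouts set against the controls of their line at each time. By edgeR's quasi-likelihood test, 0 of 39 members were called in RNA, RPF or TE in any of the 4 comparisons or in the genotype-by-time differences. In the order Aco1 at ZT5 and ZT12, then Ireb2 at ZT5 and ZT12, 0.0, 0.00935, 0.00935 and 0.0187% of all genes were called in RNA, 0.00935, 0.299, 0.0654 and 0.028% in RPF and 0.00935, 0.0935, 0.00935 and 0.0% in TE. In the genotype-by-time differences, 0.028% of all genes were called in TE in the Aco1 line and 0.0% in each of the other 5. Between 1 and 6 members were under an unadjusted p of 0.05 in each comparison, 2.56 to 15.4% of members against 2.54 to 12.7% of all genes. The members' share was above that of all genes in 16 of the 18 comparisons, which share mice with each other. Related members can also share reads, so they do not count as 39 independent genes. The members' share was below that of all genes in the genotype-by-time differences in RNA, at 2.56% against 5.87% (Aco1 line) and 2.56% against 3.86% (Ireb2 line). It was 12.8% against 5.64% in RNA and 15.4% against 7.01% in TE in Ireb2-/- at ZT5, 7.69% against 2.79% in RPF in Aco1-/- at ZT5, and 12.8% against 6.71% in TE and 12.8% against 12.7% in RPF in Aco1-/- at ZT12. DESeq2 called 1 member, Cyp2c70, in RPF in Ireb2-/- at ZT5 (adjusted p = 0.0283) and in TE in Aco1-/- at ZT12 (adjusted p = 0.0477). Without Aco1-/- ZT12 replicate 3, edgeR called 4 members in TE in Aco1-/- at ZT12, Cyp2c29, Cyp2c37, Cyp2c50 and Cyp2c70, all higher in the knockouts (adjusted p up to 0.0398). It also called Cyp2c37 in the genotype-by-time difference of TE in the Aco1 line without that mouse, and Cyp2c55 in RPF in Ireb2-/- at ZT12 without Ireb2-/- ZT12 replicate 1. The 95% confidence intervals in RNA had a median width of 0.75 to 0.81 on the log2 scale, and the widest was 6.17, for Cyp4a14 at ZT5 in the Aco1 line.

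**Figure D5:**
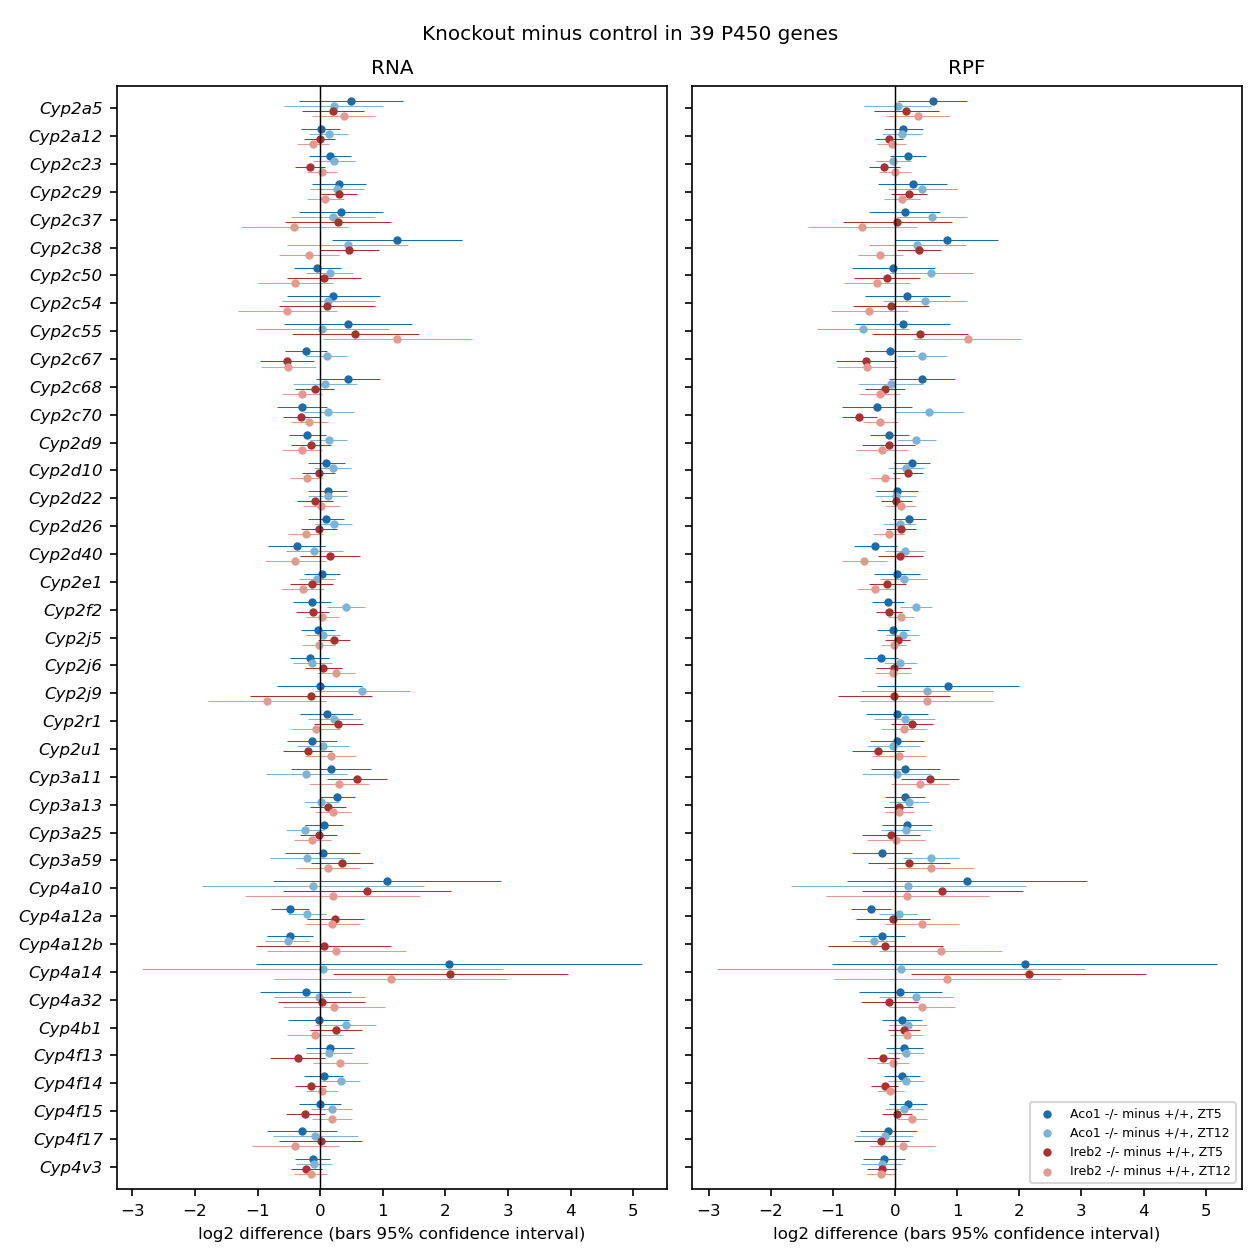
Log2 difference knockout minus control of the 39 members in RNA and RPF, with 95% confidence intervals, for the Aco1 and Ireb2 lines at ZT5 and ZT12. No point passed the adjusted threshold in edgeR, whereas DESeq2 called Cyp2c70 in RPF in Ireb2-/- at ZT5. Cyp4a14 at ZT5 lies at 2.06 (Aco1-/-) and 2.08 (Ireb2-/-) in RNA. Its knockouts and controls overlap in the Aco1 line, where 1 knockout mouse is at 686 CPM beside 201 and 25.1 CPM, and do not overlap in the Ireb2 line.

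The member with the smallest adjusted p in edgeR, named after the values were seen, was Cyp2c70, which makes muricholic acids in mouse liver. Its RPF level at ZT5 was 735, 718 and 666 CPM in Ireb2+/+ and 484, 535 and 399.8 CPM in Ireb2-/-. The knockouts were below the controls without overlap, at 0.670-fold (0.551 to 0.814, adjusted p = 0.241) in RPF and 0.812-fold (0.663 to 0.994, adjusted p = 0.837) in RNA. In the same comparison Cyp4a14 was 4.22-fold (1.15 to 15.5, adjusted p = 0.837) in RNA and 4.44-fold (1.20 to 16.5, adjusted p = 0.622) in RPF, and of the 14 other PPARα targets 0 were called in RNA, with a median of 0.05. Knockouts and controls did not overlap in RNA in 8 members there (Cyp2c37, Cyp2c38, Cyp2c55, Cyp2j5, Cyp3a11, Cyp4a10 and Cyp4a14 above, Cyp4f14 below), 20.5% of members against 11.6% of all genes, and in RPF in 7, against 15.9%. In the other 3 comparisons the RNA counts were 3 (Aco1 at ZT5, against 9.4%), 4 (Aco1 at ZT12, against 11.6%) and 2 (Ireb2 at ZT12, against 9.77%), and the RPF counts were 7, 5 and 3, against 7.62, 20.4 and 10.6%. In TE, 8 members were higher in each Aco1-/- mouse than in each Aco1+/+ mouse at ZT12, 20.5% against 11.1% of all genes not overlapping in either direction: Cyp2c70, Cyp2j6, Cyp4a10, Cyp4a12a and the 4 Cyp3a genes. In the other 3 comparisons the TE counts were 4 (Aco1 at ZT5, against 8.75%), 5 (Ireb2 at ZT5, against 11.9%) and 6 (Ireb2 at ZT12, against 9.72%). By edgeR's test with all mice, none of the members in these counts was called.

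Of the other gene lists, 2 genes were called in these knockout comparisons, both in Aco1-/- at ZT12. Pgrmc2, the heme chaperone among the redox partners, was 0.510-fold in RPF (edgeR, adjusted p = 0.0451). All 6 redox partners were below 0 there, with a median of -0.41, beside 0.02 for all genes. In RPF in Ireb2-/- at ZT5 all 6 were above 0, with a median of 0.26, beside 0.03 for all genes, and 0 called. In RPF, 2 were above and 4 below 0 in Aco1-/- at ZT5 (median -0.05), and 5 above and 1 below in Ireb2-/- at ZT12 (median 0.05). In RNA the medians of the 4 comparisons ran from -0.10 to 0.06. The Pgrmc2 call was lost with the stricter low-count filter, with all count columns summed and without any 1 of 8 of the 12 mice of the line (adjusted p up to 0.275). Mup20, a male-predominant urinary protein of a family of near-identical copies, was 2.06-fold in TE (adjusted p = 0.00234). That call was lost with limma, with unpaired libraries, with all 24 mice in 1 fit and without Aco1-/- ZT12 replicate 3, and with all count columns summed the log2 difference turned to -0.42.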

How the data were processed

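RPF and total RNA libraries were read from 24 livers, 48 libraries in 77 sequencing runs, and the runs of a library were summed. Per the methods of the study, reads were trimmed with cutadapt 3.5, cleared of rRNA and tRNA with Bowtie2 and aligned with STAR 2.70f to the mouse genome. The authors deposited a count per gene and transcript region for each run. The counting tool, its use of strand and its column names are not given in the sources used here, and the CDS column was identified from the values.

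CDS counts were scaled by the upper quartile and fitted with edgeR 4.0.16 in R 4.3.3 (robust quasi-likelihood test, Benjamini-Hochberg over the 10696 genes kept by filterByExpr with a minimum count of 10 and total of 15). A call is an adjusted p under 0.05, and SE was the log2 difference over the square root of F. Genotypes were fitted within their line and times over all groups. TE was tested in a model with a term per mouse, and its values per mouse used a prior count of 0.5. Alternatives were TMM, DESeq2 1.42.0, limma 3.58.1, other filters, columns and runs, a replicate block and leaving out each mouse. Scripts were tested on simulated data.

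Named members were those past the threshold, the 5 highest and 5 lowest in TE, the 5 most variable within groups and the sex-biased ones. CDS lengths were not used here, so no member was chosen by level per length. Uncalled members given with values were picked after these were seen. Members and gene lists were chosen with earlier results of these data known. Replicates are separate mice. The replicate numbers did not pair mice: the correlation of same-numbered residuals had a median of 0.00 in RNA and 0.01 in RPF.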

Additional observations from a re-analysis of the deposited data

Results flagged for a closer look

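The time difference of Cyp2j6, an arachidonic acid epoxygenase, in RPF differed between the lines. From ZT5 to ZT12 its log2 level changed by 0.21 ± 0.09 (SE) in the Aco1 line and by -0.31 ± 0.09 in the Ireb2 line. The difference between these was -0.52 ± 0.13 (interaction term in edgeR, adjusted p = 0.0297), in a test chosen after seeing the data. In RNA it was -0.32 (adjusted p = 0.545) and in TE -0.21 (adjusted p = 0.7). The call held under 7 other settings and was lost without any 1 of 6 mice: Aco1-/- ZT5 replicate 1, Aco1+/+ ZT12 replicate 2, Aco1+/+ ZT5 replicate 1, Ireb2-/- ZT12 replicate 1, Ireb2-/- ZT5 replicate 2 or Ireb2+/+ ZT5 replicate 1 (adjusted p up to 0.075).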

How the results depend on the processing

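Of 193 counts of called members under alternatives that kept all mice, 180 lay within 1.5 times the reported count, as did 315 of 336 counts without 1 mouse. Between control lines, RNA gave 2 calls with the stricter filter, the first run alone or DESeq2, and RPF gave 1 with no filter, the first run alone or the replicate block, 0 with all count columns and 7 with DESeq2. Without 1 mouse these counts ran from 1 to 2 in RNA and from 0 to 4 in RPF. The time difference in TE gave 3 calls with all count columns, and 0 with limma or with unpaired libraries. DESeq2 gave 1 call in RPF for Ireb2-/- at ZT5 and 1 in TE for Aco1-/- at ZT12. Leaving out Aco1-/- ZT12 replicate 3 gave 4 calls in TE for Aco1 at ZT12 and 1 in its genotype-by-time difference (range 0 to 4 and 0 to 1), and leaving out Ireb2-/- ZT12 replicate 1 gave 1 call in RPF for Ireb2 at ZT12 (range 0 to 1). The replicate block left 10 members called for time in RNA, 10 in RPF and 1 in TE, and changed a count only in the control-line RPF comparison, where the call of Cyp4a12a was lost.

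Of 775 alternatives for single members, 0 reversed direction and 716 kept the call. The RNA call of Cyp2d9 for time was lost with the stricter filter, all count columns or the first run alone, and without any 1 of 14 mice (adjusted p up to 0.112). That of Cyp2c23 was lost without Aco1-/- ZT12 replicate 3, Aco1+/+ ZT12 replicate 2, Aco1-/- ZT5 replicate 1, Aco1+/+ ZT5 replicate 3 or Ireb2-/- ZT5 replicate 1 (up to 0.0838), and that of Cyp4f17 with the first run alone (0.0721). The cause was not tested. RNA depth, down to 852293 CDS counts, limits Cyp2c55, Cyp2j9, Cyp4a32 and Cyp4f17 most.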

Other observations

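Cyp2b10, a CAR target outside the count rule, was looked at by mouse after the values were seen. Its RNA level was 31.1 CPM in Aco1-/- ZT5 replicate 2 and 23.7 CPM in Aco1-/- ZT12 replicate 3, and at most 12.2 CPM in any other mouse. The same 2 mice had the highest Cyp4a14 RNA levels of all 24, 686 and 599.8 CPM. In Cyp2c55, the third gene read by mouse here, these mice were not the highest, at 7.72 and 9.80 CPM, against up to 19.0 CPM in the others.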
